A study of Homo sapiens with 8 samples.

Results

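The nuclear lamina and the LINC complex were followed through 10 genes in BT549, an established line from a human triple-negative breast tumour: the lamin genes LMNA, LMNB1 and LMNB2, the inner nuclear membrane genes LBR, EMD and TMPO, the SUN genes SUN1 and SUN2, and the nesprin genes SYNE1 and SYNE2. The 10 genes were chosen by name. They and the gene lists used below were chosen with earlier results of these data known, so their counts beside all genes are descriptive. Each of the 10 was read from the only array probe set whose annotation gives it as the single gene symbol. Thus 10 of 18417 tested genes are described here. Of 8 cultures, 4 grew attached to ordinary culture plastic and 4 were kept in suspension on plates coated with poly-HEMA, which keeps cells from adhering. All were cells of the same line, with no drug or gene change given in the labels, in RPMI medium with 10% serum and insulin. Suspension lasted 24 h. The labels give attached culture as 24 h in the growth field and as 48 h in the treatment field, so that culture time and attachment cannot be told apart if the longer time holds. The series calls the 4 cultures of each condition biological replicates. They come from 1 line, so the p-values speak to these cultures only.

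The lamina is a meshwork of intermediate filament proteins under the inner nuclear membrane. A-type lamins (lamin A and lamin C, both from LMNA) are known to vary with tissue stiffness and cell tension, whereas B-type lamins (from LMNB1 and LMNB2) stay tied to the membrane through a farnesyl group and are made in nearly all cells. LBR, emerin (EMD) and the LAP2 proteins (TMPO) tether chromatin and lamins to the membrane. SUN proteins cross the inner membrane and hold the KASH domains of nesprins, which cross the outer membrane and reach the cytoskeleton, so that this LINC complex (linker of nucleoskeleton and cytoskeleton) joins adhesion-borne tension to the nucleus.

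LMNA was higher in suspended than in attached cells, and 3 of its neighbours in the lamina, LMNB2, TMPO and LMNB1, were lower. LMNA rose 1.38-fold, and LMNB2, TMPO and LMNB1 were 1.20-fold, 1.18-fold and 1.15-fold lower. LBR and EMD had lower means in suspension without passing the test, and none of the 4 genes of the LINC complex proper (SUN1, SUN2, SYNE1 and SYNE2) passed it. The test was limma's moderated comparison of group means over all 18417 genes, with Benjamini-Hochberg adjustment and a threshold of 0.05. By it 1 member rose and 3 fell, against 10.4% of all genes that rose and 10.2% that fell, or 20.6% in either direction. The median log2 difference of the 10 members was −0.09, beside 0.02 over all genes tested. RNA was taken from whole cultures, so a change in some cells and a change in every cell cannot be told apart.

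The RefSeq promoter windows used here were matched by gene symbol for 9 of the 10 members, 20 windows in all, and the promoter of SUN1 was not analysed here. The 250 bases before a start are printed for the 4 genes that passed the test, to show whether the 3 that fell share a motif there that LMNA lacks. The windows lie at chr5:126776886-126777135 on the plus strand for LMNB1 (the downstream of 2 starts), at chr19:2456960-2457209 on the minus strand for LMNB2, at chr12:98515323-98515572 on the plus strand for TMPO (the upstream of 2 overlapping windows) and at chr1:156082323-156082572 on the plus strand for LMNA (the most upstream of 3 starts), all in GRCh38.p14, written 5′ to 3′ on the gene's strand. The array does not tell which start was used. The starts counted here are those with a window, which need not be every start of a gene. The LMNA probe set is annotated with 7 RefSeq transcripts, against 3 windows. Capitals mark matches, on either strand, to 5 motifs: CCAAT, the box bound by NF-Y; TTTGAA, the CHR element of cell cycle genes; TTTNNCGC, a loose form of the E2F site; GGAATG, the core of a TEAD site; and TGANTCA, the AP-1 site. No match overlaps another.
LMNB1: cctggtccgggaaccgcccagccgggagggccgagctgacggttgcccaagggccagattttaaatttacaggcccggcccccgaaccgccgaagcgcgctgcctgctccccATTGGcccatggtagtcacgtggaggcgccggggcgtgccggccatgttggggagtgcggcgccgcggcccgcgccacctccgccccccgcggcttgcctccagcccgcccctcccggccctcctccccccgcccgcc
LMNB2: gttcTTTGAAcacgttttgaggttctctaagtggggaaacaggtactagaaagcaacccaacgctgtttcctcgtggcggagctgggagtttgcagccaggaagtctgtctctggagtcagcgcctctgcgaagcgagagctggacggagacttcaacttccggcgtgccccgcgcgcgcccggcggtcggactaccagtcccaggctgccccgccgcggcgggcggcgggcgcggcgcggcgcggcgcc
TMPO: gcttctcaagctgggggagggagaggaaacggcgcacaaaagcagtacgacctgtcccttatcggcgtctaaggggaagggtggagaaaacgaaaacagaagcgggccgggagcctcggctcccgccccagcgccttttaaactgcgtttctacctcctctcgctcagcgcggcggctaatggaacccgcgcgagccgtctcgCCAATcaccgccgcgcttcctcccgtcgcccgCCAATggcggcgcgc
LMNA: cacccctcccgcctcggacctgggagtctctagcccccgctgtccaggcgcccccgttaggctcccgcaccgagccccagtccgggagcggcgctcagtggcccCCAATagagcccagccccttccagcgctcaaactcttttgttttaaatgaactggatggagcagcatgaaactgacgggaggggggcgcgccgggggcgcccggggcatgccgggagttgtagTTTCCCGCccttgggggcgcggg
The LMNB1 window holds 1 CCAAT box (read as ATTGG on the printed strand) and the TMPO window holds 2, while the LMNB2 window holds 1 CHR match and no CCAAT box. The printed LMNA window has 1 CCAAT box and 1 E2F match. The other LMNA windows read here, and that at the upstream start of LMNB1, hold none of the 5 motifs. Of all 35116 RefSeq windows of this length, 32.0% hold a CCAAT box, 13.3% a CHR match, 5.92% an E2F match, 11.9% a TEAD match and 6.57% an AP-1 match. Among the 20 windows of the members, 8 hold a CCAAT box, 2 a CHR match, 3 an E2F match, 1 a TEAD match (SYNE1) and 2 an AP-1 match (LBR and SUN2). The 8 belong to 7 members and include both overlapping TMPO windows, which hold the same 2 boxes. No motif of the 5 was common to the printed windows of the 3 genes that fell. A match is a description of the sequence, not a bound site.

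LMNA encodes lamin A and lamin C, which share most of their length. Its log2 signal on attached arrays 1 to 4 was 8.91, 8.87, 8.85 and 8.89, and on suspended arrays 1 to 4 it was 9.34, 9.32, 9.33 and 9.37. Every suspended array was above every attached array, with 0.42 between the nearest pair. The mean rose from 8.88 ± 0.03 to 9.34 ± 0.02 (log2 signal ± SD, n = 4 per group), a log2 difference of 0.46 (SE 0.042, limma adjusted p = 1.56e-05). Of all genes tested, 1.84% rose by as much or more. The probe set is annotated with 7 RefSeq transcripts, among them those of lamin A and of lamin C, so the isoforms were not told apart. Without a background measure on these arrays, a fold is a ratio of signals, not of transcript amounts.

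**Figure D1:**
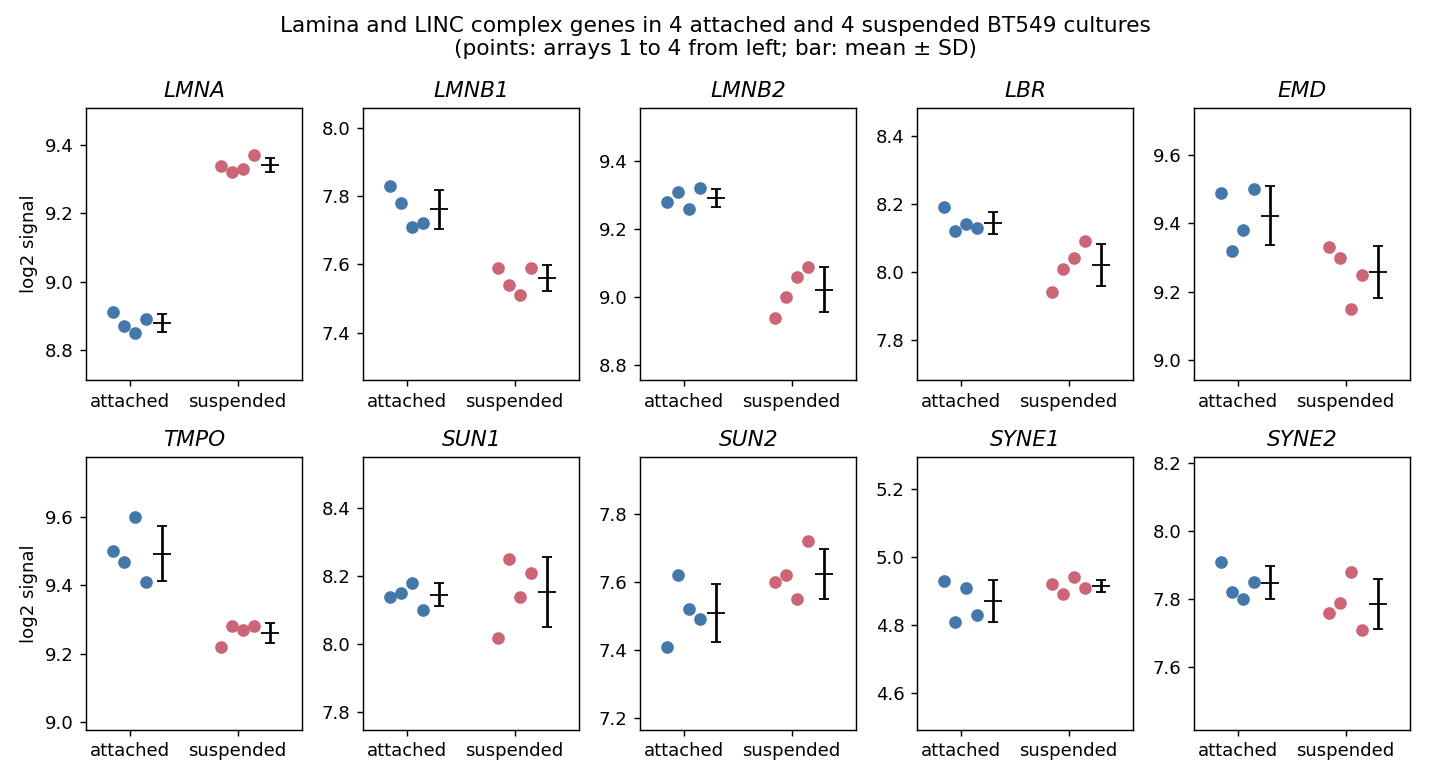
Log2 signal of each member on the 4 attached (blue) and 4 suspended (red) arrays, each panel spanning 0.8 log2 units, with the mean and SD of each group as a bar. LMNA sits between 9.32 and 9.37 in suspension against 8.85 to 8.91 attached, while LMNB1, LMNB2 and TMPO are lower on every suspended array than on every attached one.

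Both B-type lamin genes moved the other way. LMNB1, which encodes lamin B1, gave 7.83, 7.78, 7.71 and 7.72 on attached arrays 1 to 4 and 7.59, 7.54, 7.51 and 7.59 on the suspended ones. The groups did not overlap and lay 0.12 apart at their nearest values. The mean went from 7.76 ± 0.06 to 7.56 ± 0.04 (SD, n = 4 per group), a log2 difference of −0.20 (SE 0.048, limma adjusted p = 0.0105). LMNB2, which encodes lamin B2, gave 9.28, 9.31, 9.26 and 9.32 attached and 8.94, 9.00, 9.06 and 9.09 suspended. Here too no arrays overlapped, and the suspended arrays were spread more widely than the attached ones (SD 0.07 against 0.03). The log2 difference of LMNB2 was −0.27 (SE 0.048, limma adjusted p = 0.00201), and 5.67% of all genes fell by as much or more, against 9.04% for LMNB1.

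Since LMNA and the B-type genes share each array, their ratio within an array gives the unequal change directly. Set to 0 at the attached mean, the log2 ratio of LMNA to LMNB1 was −0.04, −0.03, 0.02 and 0.06 on attached arrays 1 to 4 and 0.63, 0.66, 0.70 and 0.67 on the suspended ones. The ratio of LMNA to LMNB2 was 0.04, −0.03, 0.00 and −0.02 attached and 0.81, 0.74, 0.69 and 0.69 suspended. Both ratios were higher on every suspended array. LMNA gained 1.59-fold on LMNB1 and 1.66-fold on LMNB2 (log2 changes of 0.67 and 0.73). For each, an exact two-sided permutation test over the 4 and 4 arrays gave p = 0.0286, the smallest that 4 against 4 allows. After Benjamini-Hochberg adjustment over the 4 ratios compared it was 0.0571, which did not pass 0.05. With that smallest p, neither could pass after adjustment unless a further ratio also reached it. The adjusted value therefore says nothing about the size of the change in both LMNA ratios. The other ratios changed less: SUN1 to SUN2 by −0.11 (exact permutation p = 0.171, adjusted p = 0.171) and SYNE1 to SYNE2 by 0.11 (exact permutation p = 0.0857, adjusted p = 0.114), with overlapping arrays in both.

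**Figure D2:**
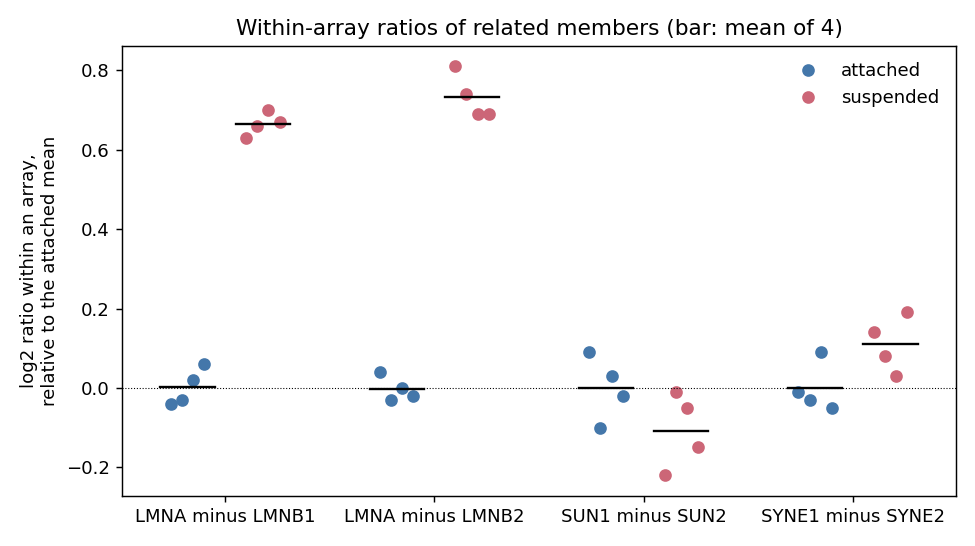
Within-array log2 ratio of 4 pairs of related members on attached (blue) and suspended (red) arrays, relative to the attached mean, with bars at the group means. The suspended arrays lie at 0.63 to 0.70 for LMNA to LMNB1 and at 0.69 to 0.81 for LMNA to LMNB2, clear of the attached arrays, while the SUN and nesprin ratios overlap.

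Among the inner membrane tethers, TMPO passed the test. It encodes the LAP2 proteins, of which LAP2 beta binds B-type lamins at the membrane while LAP2 alpha is found with A-type lamins inside the nucleus. Its log2 signal was 9.50, 9.47, 9.60 and 9.41 on attached arrays 1 to 4 and 9.22, 9.28, 9.27 and 9.28 on the suspended ones. All 4 suspended values lay under the lowest attached value, by 0.13 at the nearest pair. The log2 difference was −0.23 (SE 0.051, limma adjusted p = 0.00697), and 7.28% of all genes fell by as much or more. The probe set is annotated with 3 RefSeq transcripts, and LAP2 isoforms were not told apart.

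LBR, the lamin B receptor, binds B-type lamins and heterochromatin protein and also has sterol reductase activity. It gave 8.19, 8.12, 8.14 and 8.13 attached and 7.94, 8.01, 8.04 and 8.09 suspended. The groups did not overlap, though only 0.02 separated the nearest arrays. The difference of −0.12 (SE 0.048, 95% interval −0.23 to −0.02) did not pass (limma adjusted p = 0.0931). It passed among genes above the median signal (adjusted p = 0.0356) and was −0.10 after quantile normalization (adjusted p = 0.199). EMD encodes emerin, a LEM domain protein that binds lamins and the chromatin factor BANF1 and takes part in the nuclear response to force. It gave 9.49, 9.32, 9.38 and 9.50 attached and 9.33, 9.30, 9.15 and 9.25 suspended, so that suspended replicate 1 reached attached replicate 2. The EMD difference was −0.17 (SE 0.058, 95% interval −0.29 to −0.04, limma adjusted p = 0.0685). It passed without attached replicate 2 (−0.20, adjusted p = 0.0450), after centring each array on its median (−0.19, adjusted p = 0.0467) and with dim genes left out. It did not pass after quantile normalization (−0.10, limma adjusted p = 0.262), nor when any other single array was left out (adjusted p up to 0.18). At unadjusted p under 0.05, 1 member rose and 5 fell, against 17.6% of all genes that were higher and 14.9% that were lower at that threshold, LBR and EMD being the 2 that the adjustment removed. In all, 5 of the 10 members had groups that did not overlap, against 24.8% of all genes.

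The LINC complex proper gave no call. SUN1 and SUN2, which encode the inner membrane proteins that grip the nesprins, differed by 0.01 (SE 0.056, 95% interval −0.12 to 0.13, adjusted p = 0.944) and 0.11 (SE 0.057, 95% interval −0.01 to 0.24, adjusted p = 0.199). SUN1 gave 8.14, 8.15, 8.18 and 8.10 attached and 8.02, 8.25, 8.14 and 8.21 suspended, with the attached arrays inside the suspended range. SUN2 gave 7.41, 7.62, 7.52 and 7.49 attached and 7.60, 7.62, 7.55 and 7.72 suspended. Attached replicate 2 of SUN2 lay among the suspended arrays, and the other 3 attached values were below all of them.

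The nesprin genes encode giant proteins with actin-binding ends, nesprin-1 (SYNE1) and nesprin-2 (SYNE2). SYNE1 gave 4.93, 4.81, 4.91 and 4.83 attached and 4.92, 4.89, 4.94 and 4.91 suspended. Its mean over all arrays, 4.89, lies below the 25th percentile of gene means (5.28), the reference used here for low signal, and a low signal carries no statement of presence. SYNE1 differed by 0.05 (SE 0.046, 95% interval −0.06 to 0.15, limma adjusted p = 0.542). SYNE2 gave 7.91, 7.82, 7.80 and 7.85 attached and 7.76, 7.79, 7.88 and 7.71 suspended, a difference of −0.06 (SE 0.052, 95% interval −0.18 to 0.05, limma adjusted p = 0.444). In both nesprin genes the groups overlapped. Their intervals bound a change of signal without showing that the groups were alike. A further KASH gene outside the 10, SYNE3, whose nesprin-3 binds plectin, rose by 0.20 (SE 0.053, limma adjusted p = 0.0173): it gave 5.98, 5.80, 5.99 and 5.99 attached and 6.17, 6.12, 6.15 and 6.14 suspended.

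**Figure D3:**
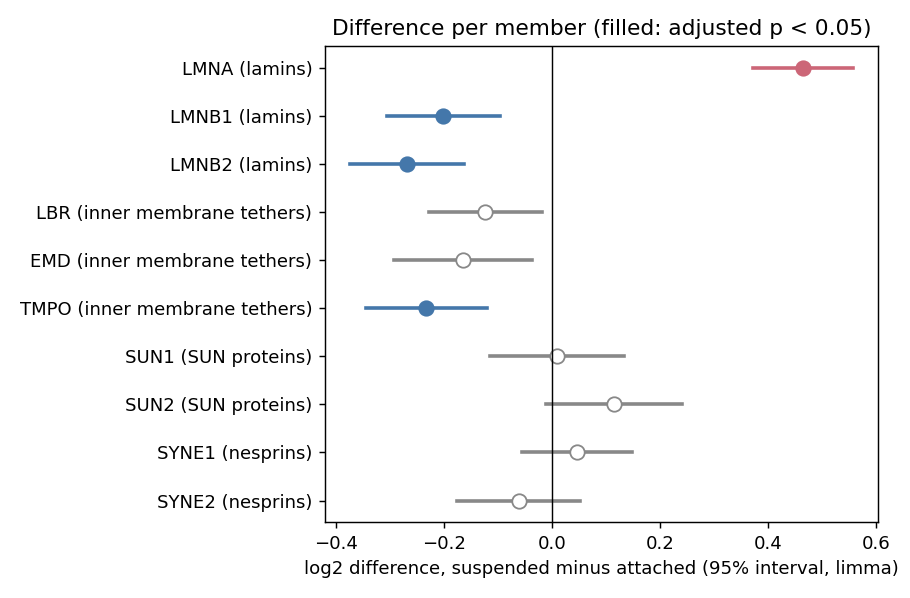
Log2 difference, suspended minus attached, of each member with its 95% interval from limma; filled points passed adjusted p under 0.05 over all genes. LMNA stands at 0.46, LMNB2, TMPO and LMNB1 at −0.27, −0.23 and −0.20, and the intervals of the 4 SUN and nesprin genes all include 0.

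Beyond the members, 6 lists held 57 measured genes of the nuclear envelope and its partners, not the whole envelope. They were called about as often as all genes: 4 rose and 7 fell, or 19.3% against 20.6%. Their median difference was 0.02, equal at this rounding to that of all genes. Of 18 partners at the inner membrane and lamina 1 fell and 0 rose by limma (3 lower and 0 higher at unadjusted p under 0.05, where 14.9% of all genes were lower). That gene was TMEM201, which encodes the inner membrane protein SAMP1, found with SUN proteins. It gave 7.55, 7.65, 7.78 and 7.58 attached and 7.30, 7.06, 7.14 and 7.18 suspended, a difference of −0.47 (SE 0.066, adjusted p = 0.000397). All suspended arrays were below all attached arrays.

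None of 4 measured enzymes that process lamins (farnesylation, cleavage and methylation) and none of 4 chromatin partners passed limma's test; at unadjusted p under 0.05, 1 of the enzymes was lower and 1 of the partners higher, against 14.9% and 17.6% of all genes. These are ICMT, the methyltransferase that finishes the lamin tail, at −0.13 (adjusted p = 0.0702), and CBX5, the heterochromatin protein that binds LBR, at 0.12 (adjusted p = 0.0749), both picked out after their values were seen. Of 7 other SUN and KASH genes 1 rose, SYNE3. Of 9 cytoskeletal partners of nesprins 2 rose, the kinesin light chain KLC1 (0.20, SE 0.056, adjusted p = 0.0248) and the Cdc42-binding kinase CDC42BPA (0.14, SE 0.046, adjusted p = 0.0478). In either direction, 14.3% of the first list and 22.2% of the second were called, against 20.6% of all genes. The KLC1 call was kept in 3 of 8 refits that each left out 1 array (those that dropped attached array 2, suspended array 2 or suspended array 3; 0.17 to 0.24), and that of CDC42BPA in 1, which dropped suspended array 2 (0.12 to 0.16).

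Of the 11 calls in the 6 lists, 7 were among 15 genes that take the envelope apart in mitosis and reseal it. In this list 6 genes fell and 1 rose, against 10.2% and 10.4% of all genes. VRK1, the kinase that releases BANF1 from chromatin, gave 8.21, 8.10, 8.11 and 8.20 attached and 7.45, 7.78, 7.55 and 7.51 suspended. All suspended arrays were lower (log2 difference −0.58, SE 0.069, adjusted p = 0.000121). The mitotic kinase CDK1, which phosphorylates lamins, fell by 0.32 on the log2 scale (SE 0.080, adjusted p = 0.0147), and PPP2R2A, a phosphatase subunit of mitotic exit, fell by 0.25 (SE 0.046, adjusted p = 0.00254). CDK1 is counted again among the proliferation genes below, and the part of proliferation in the other falls of this list was not tested. CHMP2A, an ESCRT-III subunit, rose 1.28-fold, from 9.79, 9.91, 9.94 and 9.80 to 10.32, 10.20, 10.17 and 10.19 on arrays 1 to 4 (log2 difference 0.36, SE 0.055, adjusted p = 0.000700). These 4 genes were among the 9 of this list whose groups did not overlap, against 24.8% of all genes.

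Smaller falls were those of CNEP1R1, a regulator of the lipin phosphatase (−0.21, adjusted p = 0.0225), CDCA2, which brings a phosphatase to anaphase chromatin (−0.15, adjusted p = 0.0294), and VPS4A, the ATPase that takes ESCRT-III apart (−0.15, adjusted p = 0.0372). CNEP1R1 was not called when attached array 2, attached array 4 or suspended array 4 was dropped (−0.23 to −0.17 over the 8 refits). Of the same refits, CDCA2 passed in those that dropped attached array 1 or suspended array 4 (−0.17 to −0.14), and VPS4A in those that dropped attached array 1 or suspended array 2 (−0.18 to −0.14). Over the 6 lists together dropping attached array 2, attached array 3 or suspended array 1 left 7 called genes in each case, and dropping attached array 4 left 6, against 11 with all arrays. After quantile normalization CDCA2 and VPS4A were not called (−0.09 and −0.13, adjusted p = 0.184 and 0.0578), nor was CDC42BPA after median centring (0.12, adjusted p = 0.112). In a limma fit with the replicate number as a block, CNEP1R1, KLC1, CDCA2, VPS4A and CDC42BPA were not called (adjusted p of 0.0645 to 0.104).

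**Figure D4:**
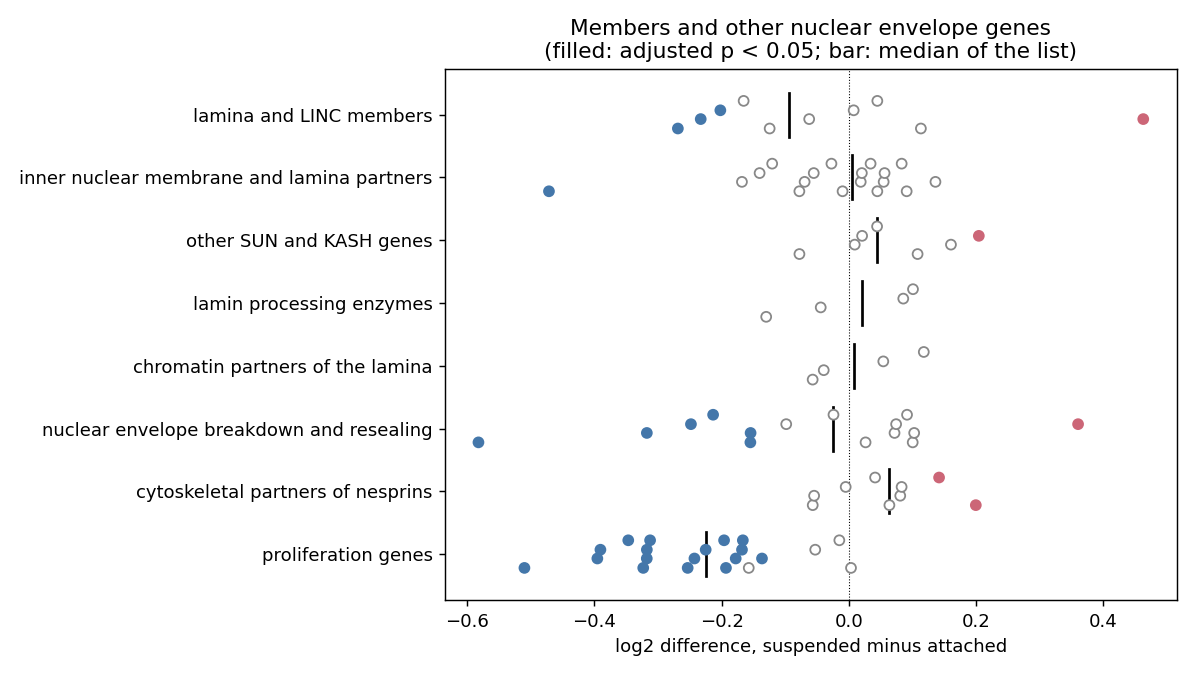
Log2 difference, suspended minus attached, of the 10 members, of the genes in 6 nuclear envelope lists and of proliferation genes; each point is a gene, filled where limma's adjusted p was under 0.05, and each bar is the median of its list. The medians of the envelope lists lie between −0.02 and 0.06, and that of the proliferation genes at −0.22.

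LMNB1, LBR and TMPO are known to be transcribed with the cell cycle, and proliferation genes were lower in the same suspended arrays. Of 21 measured, 17 fell and 0 rose by limma, against 10.2% and 10.4% of all genes. At unadjusted p under 0.05 the counts were 18 and 0, against 14.9% of all genes lower and 17.6% higher. Their median log2 difference was −0.22. The smallest adjusted p-values were those of the replication factor CDC6 (−0.51, SE 0.061, adjusted p = 0.000125), the thymidylate synthase TYMS (−0.32, SE 0.045, adjusted p = 0.000406) and the mitotic kinase TTK (−0.39, SE 0.058, adjusted p = 0.000579). The count was 11 without attached replicate 3 and 11 after quantile normalization, with 0 rises in both. Beside this median, LMNB1 differed by −0.20, TMPO by −0.23 and LBR, which was not called, by −0.12. LMNB2 differed by −0.27. The part of proliferation in these values was not tested. LMNA went the other way from 20 of the 21.

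By Pearson's r over the 8 arrays, the tested genes most like LMNB1 were ASPM, a spindle pole protein (r = 0.991), PCNA, the replication clamp (r = 0.978), and the thioesterase gene ACOT9 (r = 0.977). Those most like LMNA were the integrin subunit ITGB8, the kinase LYN (both r = 0.998) and TRPS1, a GATA-type repressor (r = 0.997). These correlations contain the difference between the groups and were the highest of 18416 per gene, so they serve as a description. The likeness is of pattern and not of size: ITGB8 differed by 1.10, LYN by 1.07 and TRPS1 by 0.47 between the groups, against 0.46 for LMNA.

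Array medians lay between 6.02 and 6.07, and arrays correlated at 0.993 to 0.996 within the groups and 0.987 to 0.994 between them; 0 pairs were identical. The number of arrays, 8 in all, limits the precision. As a check of the cell line, all 5 mesenchymal markers (VIM, CDH2, FN1, ZEB1 and TWIST1) had mean signals of 8.62 to 11.7, above the low-signal reference. Below it were CDH1 among 4 epithelial markers, the receptor genes ESR1 and PGR among 4 luminal ones, and 2 of 3 leukocyte and 3 of 4 endothelial markers. Above it were the other epithelial markers, EPCAM, KRT8 and KRT18 (mean signals up to 8.14), and the other luminal ones, ERBB2 and GATA3 (up to 8.41). Of these 20 markers, 20% were called by limma, against 20.6% of all genes. In suspension 3 markers rose, namely GATA3 (log2 difference 0.49, adjusted p = 2.05e-05), ZEB1 (0.27, adjusted p = 0.0024) and CD14 (0.22, adjusted p = 0.0467), and CDH2 fell (−0.38, adjusted p = 0.000104). Their part in the members' changes was not tested.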

How the data were processed

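Total RNA from 8 BT549 cultures (4 attached, 4 suspended) was labelled with biotin and hybridised to gene-level arrays. The labels name a labelling kit made for small RNA, which leaves the labelling step behind these signals uncertain. The authors used Partek, per the submitters' processing notes. Which version, and how it corrected background, normalized and summarised the probes, is not given in the sources used here. The authors deposited log2 signals for 33297 probe sets, a scale inferred from array maxima of 13.69 to 13.73. These values were used as deposited. Of the probe sets, 19460 had 1 gene symbol in the platform annotation, 1754 several and 12083 none. Only those with 1 symbol were tested, the brightest by mean standing for a gene (18417 genes). Symbols were checked by gene ID against RefSeq GRCh38.p14 (19429 matched, 0 updated). The array table names no genome build, so gene positions are not given; promoter windows are RefSeq's.

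The group comparison used limma 3.58.1 under R 4.3.3 (lmFit, eBayes, two-sided, no covariate), p adjusted by Benjamini-Hochberg over all genes. Unless said otherwise, adjusted p-values are from this fit. Tables and plots used Python 3.11.15, pandas 2.3.3 and matplotlib 3.10.9. On simulated data the fit called 54% of 100 genes changed 1.25-fold and 100% of 100 changed 2-fold, and 9 unchanged genes. Changes of 1.25-fold can thus be missed. Far fewer genes were changed in the simulation than were called in the data, which makes the adjusted cut-off stricter there. The share of 54% therefore need not hold for these data. The members and lists were chosen with earlier results of these data known. Named genes are the 10 members, every called gene of the envelope lists, the 3 proliferation genes with the smallest adjusted p, and the 3 genes most like LMNA and LMNB1. ICMT, CBX5, CD14 and the measured mesenchymal, epithelial and luminal markers were named besides. FNTB had no tested gene.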

Additional observations from a re-analysis of the deposited data

How the results depend on the processing

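Alternatives were a block for the replicate number, median centring, quantile normalization, 2 filters on dim genes, array weights, 2 other rules for probe sets, and leaving out each array. LMNA (0.44 to 0.51 under the first 8, 0.45 to 0.47 over the 8 refits), LMNB1 (−0.22 to −0.18 under both), LMNB2 (−0.29 to −0.21, and −0.29 to −0.24) and TMPO (−0.26 to −0.18, and −0.26 to −0.20) kept direction and call in all 16. EMD passed after median centring (−0.188, adjusted p = 0.0467), above the 25th percentile (−0.165, adjusted p = 0.0490) and above the median of gene means (−0.165, adjusted p = 0.0279), and ranged from −0.198 to −0.131 with 1 array left out. LBR passed above the median (−0.124, adjusted p = 0.0356) and ranged from −0.148 to −0.0990 over the refits. After quantile normalization neither passed, with EMD at −0.105 (limma adjusted p = 0.262) and LBR at −0.097 (adjusted p = 0.199). SUN1, near 0, turned sign after median centring (−0.0149) and in 3 refits (−0.0246 to 0.0539). The count of called members was 4 to 5 over the refits and 4 to 6 under the other settings. Envelope genes called numbered 6 to 11 over the refits, and proliferation genes 11 to 15, with 11 after quantile normalization. The changes of the LMNA ratios were 0.651 to 0.684 (LMNB1) and 0.707 to 0.747 (LMNB2) over the refits, where 3 against 4 arrays cannot reach an exact permutation p under 0.0571. Both filters leave SYNE1 out at its low signal.

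With the replicate number as a block, 3022 of all genes were called, against 3787 without it. Of the envelope genes 6 were called (2 higher, 4 lower), against 11, and no member's call changed. Same-numbered arrays did not deviate together (r of −0.198 to 0.0416 over 4 pairs, against −0.203 to 0.256 over 12 others). With 4 arrays per group this cannot exclude that same-numbered cultures were set up together. The main fit did not pair them.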
